A study of Homo sapiens with 3 samples.

Results

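Accessible chromatin was described at 9 genes used as markers of the other cell types of the brain, in a culture labelled as brain endothelium. The genes were taken by symbol from the RefSeq gene table of GRCh38.p14, where all 9 matched, out of 20037 protein-coding genes. They mark neurons (RBFOX3, SNAP25, STMN2), astrocytes (GFAP, AQP4), the oligodendrocyte lineage (OLIG2, MBP) and microglia (CX3CR1, AIF1). The rule used no measured value. The material was hCMEC/D3, an immortalized human brain microvascular endothelial line, untreated as far as the labels say and grown to confluence on collagen. The data used were the called peaks of 1 ATAC-seq library, replicate 2. No second cell type, ATAC library or primary endothelium was among the data used, so no test between groups could be made, no replicate error is known, and every value below describes that library. The 2 RNA libraries of the series list Ensembl transcripts without gene names, and the transcripts of these genes were not analysed here.

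Neurons carry signals between cells, astrocytes wrap vessels and synapses, oligodendrocytes make myelin and microglia are the resident immune cells of the brain. Endothelial cells line the brain's vessels next to these cells and belong to another lineage. In ATAC-seq the Tn5 transposase cuts DNA that is not packed away, so an accumulation of cuts marks an accessible region. Accessible regions occur at promoters and at enhancers, and such a region alone does not show that a gene is transcribed.

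Of the 9 genes, 8 had at least 1 peak within the gene or 10 kb either side, and AQP4 had none. Among all protein-coding genes the share with such a peak was 89.8%. A peak overlapping the gene itself was found for 6 of the 9, against 82.1% of protein-coding genes. A peak within 1 kb of either end of the gene was found for 5 of the 9, RBFOX3, SNAP25, GFAP, MBP and CX3CR1, against 72.8% of protein-coding genes. The caller's q was used as a stricter filter, keeping peaks whose −log10 q reached 5. A peak within 10 kb then remained for 7 of the 9 genes, all of the 8 except STMN2, against 86.1% of protein-coding genes, and an end peak for 2 of the 9 (SNAP25 and CX3CR1), against 66.7%. When only peaks reaching a fold of 4 were kept, the counts were again 7 and 2, for the same genes, against 84.2% and 56.0%. The table of start sites held windows for 5 of the 9 genes, and a peak lay on such a window in 2 of them, RBFOX3 and MBP, against 70.2% of the 15843 protein-coding genes with a window. No test of these shares was made.

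The 8 genes held 64 peaks, of which 42 lay inside a gene away from its ends, 15 in the flanks and 7 within 1 kb of an end. MBP had 22 and RBFOX3 had 18, so these 2 genes held most of the peaks. SNAP25 and GFAP had 8 each, CX3CR1 had 5, and STMN2, OLIG2 and AIF1 had 1 each. The median over the 9 genes was 5 peaks, compared with 3 over all protein-coding genes, but these genes differ widely in length. Per 10 kb of gene and flank the median was 0.459 peaks, compared with 0.663.

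**Figure D1:**
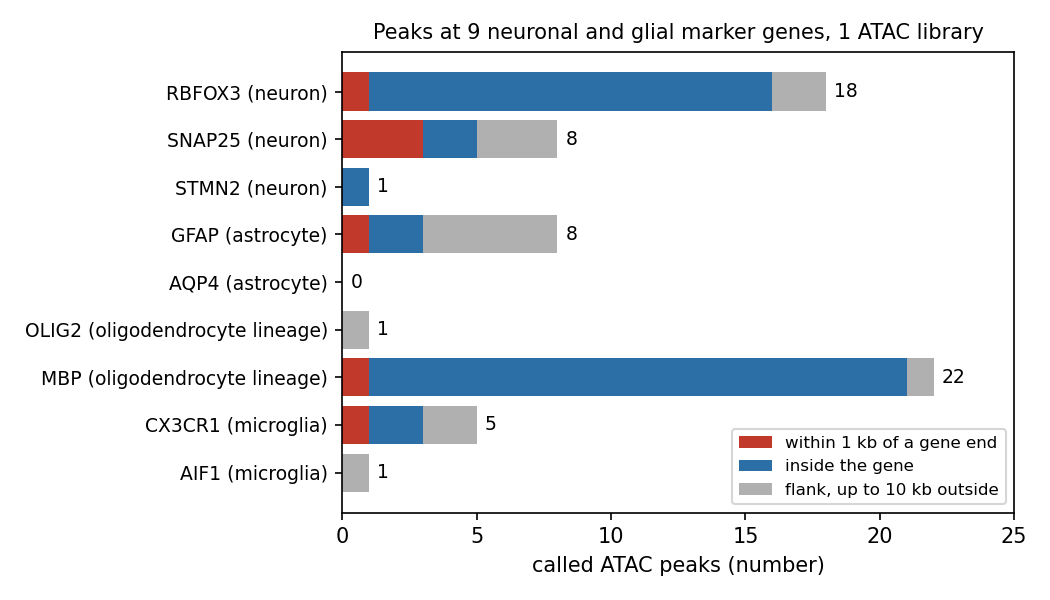
Number of called ATAC peaks (x axis) at each of the 9 genes, in 1 library, coloured by position: within 1 kb of a gene end, inside the gene, or up to 10 kb outside. MBP had 22 peaks and RBFOX3 had 18, mostly inside the gene, and AQP4 had 0.

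The start-site windows show where a peak met a promoter and where it did not. Each sequence below is the 250 bases before an annotated start, from RefSeq on GRCh38.p14, minus strand, written 5′ to 3′ with CG pairs in capitals. CG pairs are shown because promoters rich in them are commonly accessible in many cell types. The first pair are windows with a peak, at RBFOX3 (chr17:79658976-79659225) and at the more upstream start of MBP (chr18:77132784-77133033).
RBFOX3: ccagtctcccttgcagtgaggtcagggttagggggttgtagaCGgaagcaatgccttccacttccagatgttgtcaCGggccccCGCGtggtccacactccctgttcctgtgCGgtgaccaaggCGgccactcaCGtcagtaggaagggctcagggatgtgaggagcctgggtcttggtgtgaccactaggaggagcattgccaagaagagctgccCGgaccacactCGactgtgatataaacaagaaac
MBP upstream: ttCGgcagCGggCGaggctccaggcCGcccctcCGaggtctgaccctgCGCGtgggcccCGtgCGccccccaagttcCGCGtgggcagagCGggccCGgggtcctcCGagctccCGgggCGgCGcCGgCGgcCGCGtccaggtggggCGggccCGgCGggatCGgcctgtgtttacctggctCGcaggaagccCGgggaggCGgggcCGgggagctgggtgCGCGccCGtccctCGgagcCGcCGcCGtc
The other three are windows without a peak, at the downstream start of MBP (chr18:77017056-77017305), at AQP4 (chr18:26865804-26866053) and at CX3CR1 (chr3:39281736-39281985).
MBP downstream: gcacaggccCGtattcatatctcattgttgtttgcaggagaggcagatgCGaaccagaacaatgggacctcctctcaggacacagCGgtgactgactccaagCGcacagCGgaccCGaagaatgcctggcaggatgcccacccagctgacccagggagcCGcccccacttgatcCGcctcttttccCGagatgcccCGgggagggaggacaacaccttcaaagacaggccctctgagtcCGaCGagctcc
AQP4: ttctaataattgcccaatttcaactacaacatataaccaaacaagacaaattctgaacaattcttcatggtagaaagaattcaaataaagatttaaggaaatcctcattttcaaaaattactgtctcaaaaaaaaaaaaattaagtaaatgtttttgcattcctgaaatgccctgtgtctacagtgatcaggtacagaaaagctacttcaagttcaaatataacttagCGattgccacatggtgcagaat
CX3CR1: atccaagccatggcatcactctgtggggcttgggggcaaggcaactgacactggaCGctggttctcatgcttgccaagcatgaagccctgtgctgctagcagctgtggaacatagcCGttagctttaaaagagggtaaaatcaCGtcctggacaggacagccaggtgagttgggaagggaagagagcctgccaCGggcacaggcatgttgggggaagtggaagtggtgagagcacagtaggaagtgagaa

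The upstream MBP window held 36 CG pairs and a GC content of 80.4%, compared with 12 pairs and 60.4% at the downstream window. RBFOX3 held 9 pairs, CX3CR1 held 4 and AQP4 held 1, with a GC content of 30.4%. The median over all 35116 start windows of the table was 11 pairs and 58.0% GC. Of the 22 windows of these genes, none held the AP-1 motif TGANTCA and 1, at RBFOX3, held the ETS motif CCGGAA, searched on both strands. The shares of all windows with them were 6.57% and 14.5%. The TATA box letters TATAAA, which cannot overlap the ETS letters, were found in 5 of the 22, against 10.7% of all windows. In the RBFOX3 sequence shown they start 14 bases before the annotated start. A match gives the letters in the window and is not a binding site.

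RBFOX3 encodes NeuN, a splicing regulator of mature neurons. Its gene (chr17:79089345-79665571) spans 576 kb and held 18 peaks in all. Its 769 length neighbours, protein-coding genes of 0.5 to 2 times its length, had a median of 11 (quartiles 5 and 22). The peaks were narrow, 217 to 642 bp, and most had a low pileup. Pileup is the depth of stacked extended tags, which the peak caller gives as a single value for each broad region. These values are not whole numbers, so they are not counts of tags at a single position. At RBFOX3 pileup ran from 8.45 to 41.3 tags with a median of 15.3. It was below the median of all 106415 peaks, 21.6 tags, for 15 of the 18.

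The strongest RBFOX3 peak was chr17:79161265-79161649, inside the gene, with 41.3 tags and a fold of 9.82 over the local background. That fold was at the 99.2 percentile of all peaks in the list. The folds of the 18 peaks ran from 2.80 to 9.82, and the median fold of all peaks was 4.49. The table of start sites held 12 windows for the gene. The peak chr17:79658904-79659177, with 15.3 tags and a fold of 4.84, lay on the most upstream pair of these, which overlap each other. This pair lay about 6.5 kb downstream of the upstream end of the gene. That end itself had no window in the table and no peak within 1 kb. The peak chr17:79607988-79608276, with 15.3 tags, lay 288 bp and 836 bp from the next pair of windows. The remaining 8 windows lay in a stretch of 187 kb without a peak. The single peak within 1 kb of an end of the gene, chr17:79090191-79090793, was at the downstream end, with 13.6 tags and a fold of 3.32. A group of 4 peaks between 79388556 and 79401366 had 15.8 to 22.8 tags.

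SNAP25 encodes a SNARE protein that drives the fusion of synaptic vesicles. The gene (chr20:10218830-10307418, 88.6 kb) held 8 peaks, and the median of 5237 genes of similar length was 5. A pair of regions stood at its left end in the reference, chr20:10217990-10218337 with 15.1 tags and chr20:10219342-10219840 with 13.6 tags. Both had low pileup, at the 29.2 and 22.7 percentiles of all peaks, and both overlap SNAP25-AS1, an antisense gene. ATAC reads carry no strand of transcription, so these regions cannot be assigned to either gene.

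The right end of SNAP25 was covered by a region of higher pileup, chr20:10306629-10307562, with 35.0 tags over 934 bp. The highest pileup at the gene lay 1.92 kb beyond that end, at chr20:10309341-10309772, with 44.3 tags. Inside the gene, chr20:10250770-10251260 reached a fold of 9.12 (98.3 percentile) with 31.0 tags, and the following 55.4 kb to the right end held no peak. The higher pileups at this gene were thus in its body and at or beyond its right end. Fold did not separate the ends in this way. It was 4.77 and 4.33 in the regions at the left end and 4.56 at the right end. The local background was 2.37 tags at both left regions and 6.90 tags at the right end.

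STMN2 encodes stathmin-2, a microtubule regulator of growing axons. The gene (chr8:79611117-79666158, 55.0 kb) had 1 peak, chr8:79615298-79615748, inside the gene. Its pileup was 9.01 tags (1.74 percentile of all peaks), its fold 2.97 and its −log10 q 1.98. The lowest pileup called anywhere was 8 tags, so the region stood just above the lowest value in the list. The previous peak was 177 kb away and the next 145 kb away. Only 4.19% of 6341 genes of similar length had fewer peaks, that is none.

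GFAP encodes the intermediate filament of astrocytes. The gene (chr17:44903159-44915500) is 12.3 kb long and had 8 peaks, whereas genes of similar length had a median of 3. Per 10 kb it had 2.47 peaks, more than 99.2% of protein-coding genes. Pileup ran from 16.95 to 54.7 tags, with the highest at chr17:44900874-44901961, 1.2 kb outside the gene and within DNAAF19.

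GFAP lies among other genes, and 3 of its 8 peaks were within 1 kb of an end of another protein-coding gene (EFTUD2, DNAAF19, FAM187A or KIF18B). These included chr17:44906044-44906453, inside GFAP, with 52.3 tags. The peak inside GFAP away from any such end was chr17:44911095-44911608, with 34.4 tags and a fold of 4.96. The peak within 1 kb of a GFAP end, chr17:44916000-44916287, lay 500 bp outside the gene, with 21.3 tags and a fold of 2.44 (2.13 percentile). The local background around the 8 peaks was 6.15 to 11.9 tags, compared with a lowest possible value of 2.37 tags in this library.

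AQP4 encodes the main water channel of astrocytes, concentrated in the endfeet that surround brain vessels. The gene (chr18:26852038-26865803, 13.8 kb) had no peak within it or 10 kb either side. Of 6480 genes of similar length 90.8% had one. The nearest peaks were 195 kb away on the left, at an end of KCTD1, with 27.3 tags, and 270 kb away on the right, within CHST9, with 11.4 tags. The interval without a peak was 479 kb long. Of 1983 protein-coding genes that likewise had no peak and had peaks on both sides, 584 stood in an interval at least as long, and the median was 185 kb. The 3 start windows of the gene held 1 to 4 CG pairs.

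OLIG2 encodes a basic helix-loop-helix factor that specifies oligodendrocytes and motor neurons. The gene is short (chr21:33025935-33029185, 3.25 kb) and held no peak itself. A single region in its flank, chr21:33036381-33036801, lay 7.2 kb from the gene. It had 39.0 tags (78.4 percentile), a fold of 9.46 (98.8 percentile) and −log10 q of 28.5, and no end of another gene lay within 1 kb of it. Just outside the 10 kb limit, peaks stood 13.6 kb to the right, with 27.8 tags, and 14.1 kb to the left, with 24.5 tags.

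MBP encodes myelin basic protein, which compacts the myelin sheath. The same gene also gives longer transcripts, called Golli, that start further upstream and are known from other cells, including immune cells. The gene (chr18:76978833-77133708, 155 kb) held 22 peaks, 20 of them inside away from the ends. Genes of similar length had a median of 7 (quartiles 4 and 12), and 94.4% of those 3593 genes had fewer.

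The MBP peaks were many, and most had a high pileup. Pileup ran from 8 to 96.5 tags with a median of 37.2, and 10 of the 22 reached 40 tags, compared with 20.6% of all peaks. Over the other genes described here together, 6 peaks reached 40 tags. A run of 6 peaks within 17.8 kb had 66.3, 54.1, 49.8, 90.5, 61.6 and 96.5 tags in order of position from chr18:77054550 to 77072352. The highest, chr18:77071612-77072352, was at the 99.7 percentile of pileup. The widest, chr18:77101064-77102879, was 1816 bp long with 88.5 tags.

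Fold over the local background ranked these MBP regions differently. In the run of 6, the folds were 7.14, 3.17, 2.26, 3.13, 2.49 and 4.39, and the local background was 8.42 tags at the first and 16.4 to 28.2 tags at the other 5. A background of at least 10 tags was found at 10 of the 22 MBP peaks, compared with 11.9% of all peaks. The caller estimates that background from the surrounding 10000 bp of the same library, so tags of neighbouring peaks count towards it. How much of the background at MBP came from such tags was not tested. The region chr18:77065317-77065836 stood at the 87.8 percentile of pileup and the 1.09 percentile of fold.

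At the starts of MBP, the upstream window was covered over its whole 300 bases by chr18:77131816-77133373, a region of 1558 bp with 29.99 tags and a fold of 2.48. The downstream window had no peak. The nearest was 18.6 kb away, and the window lay within a stretch of 47.2 kb without a peak, the longest in the gene. The accessible regions of the gene thus lay mainly between its upstream end and about the middle, as the map of MBP shows.

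**Figure D2:**
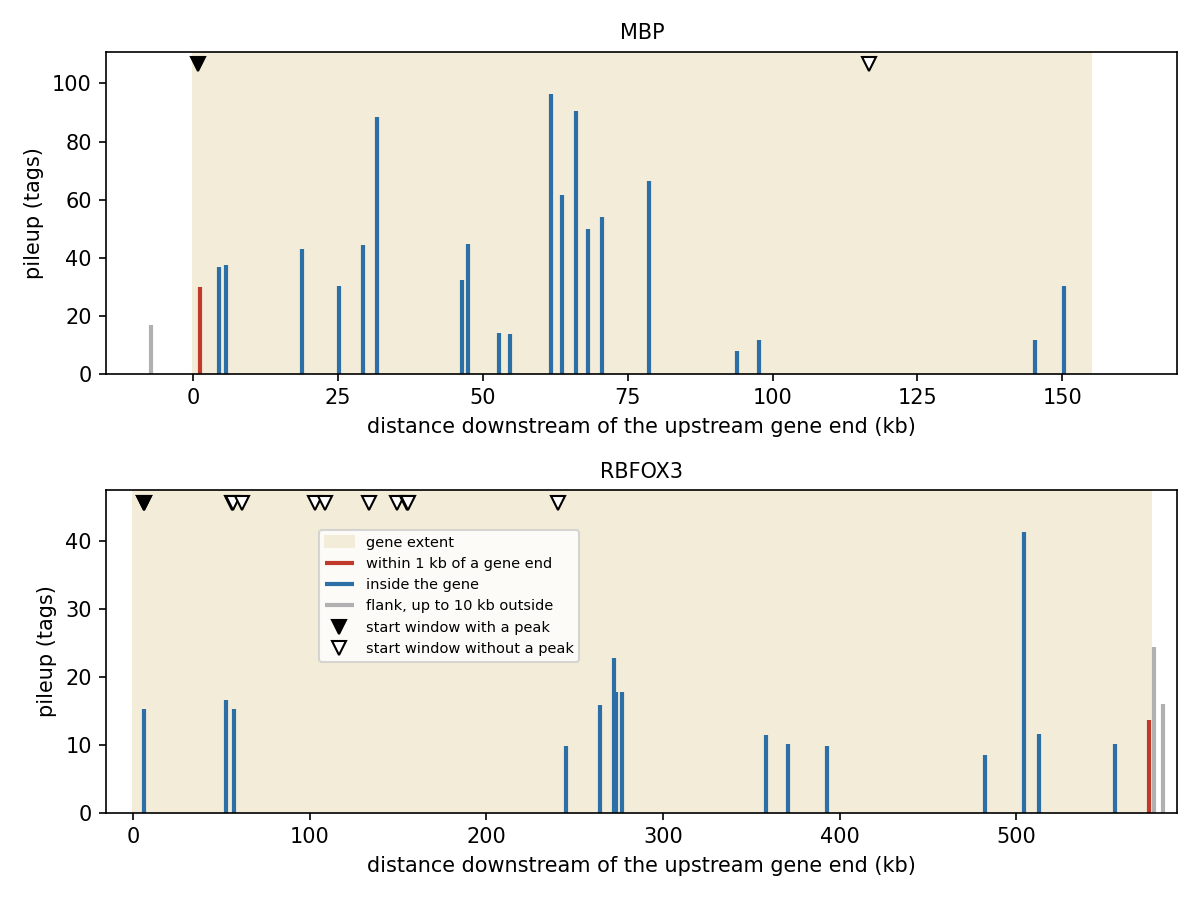
Pileup in tags (y axis) of each peak at MBP and RBFOX3 against distance in kb from the upstream end of the gene (x axis), with the gene extent shaded and RefSeq start windows as triangles, filled where a peak lay on the window. At MBP the highest peak, with 96.5 tags, belongs to the run of 6 near the middle of the gene, the widest, with 88.5 tags, stands nearer the upstream end, and the open triangle lies in the 47.2 kb without a peak; at RBFOX3 most peaks stay under 20 tags, and 10 of 12 windows, some drawn on top of each other, are open.

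CX3CR1 encodes the receptor for fractalkine on microglia and other myeloid cells. The gene (chr3:39263494-39292966, 29.5 kb) had 5 peaks, and genes of similar length a median of 4. The strongest was in the flank, chr3:39260932-39261454, 2.04 kb outside the gene, with 38.05 tags and a fold of 11.5 (99.9 percentile), the highest fold among the 64 peaks. Inside the gene, chr3:39288344-39288787 had 36.5 tags, and chr3:39291855-39292203, within 1 kb of the upstream end of the gene, had 27.7 tags and a fold of 5.35. None of the 3 start windows in the table held a peak, and the nearest peak was 2.58 kb from the first of them, at chr3:39284568-39284853, with 13.4 tags. These windows lay about 11.1 to 12.4 kb downstream of the upstream end of the gene. That end itself had no window in the table.

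AIF1 encodes IBA1, an actin-binding protein used to stain microglia, and lies in the gene-dense major histocompatibility region. The gene (chr6:31615234-31617015, 1.78 kb) held no peak, nor did either of its start windows. Its single flanking peak, chr6:31619879-31621302, lay 2.86 kb away over an end of PRRC2A, a neighbouring gene. That region had 82.3 tags (98.9 percentile) over 1424 bp. Leaving out peaks within 1 kb of an end of another protein-coding gene, AIF1 had none and 7 of the 9 genes kept a peak. The share of all protein-coding genes that keep a peak in this way was not counted, so the 7 cannot be set against it.

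By the highest peak within 10 kb, the order was MBP (96.5 tags), AIF1 (82.3), GFAP (54.7), SNAP25 (44.3), RBFOX3 (41.3), OLIG2 (39.0), CX3CR1 (38.05) and STMN2 (9.01). Which neighbours in this order differ cannot be told without a second library. The AIF1 peak lay over an end of PRRC2A and the GFAP peak within DNAAF19, each outside the gene it is listed for. The 64 peaks had a median of 23.6 tags, 4.22-fold and 409 bp, and all peaks of the list 21.6 tags, 4.49-fold and 452 bp. The median of the highest end peak was 27.7 tags over the 5 genes with one, compared with 45.7 tags over all protein-coding genes with one. In a bulk library, accessibility in fewer cells and weaker accessibility in each cell cannot be told apart.

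**Figure D3:**
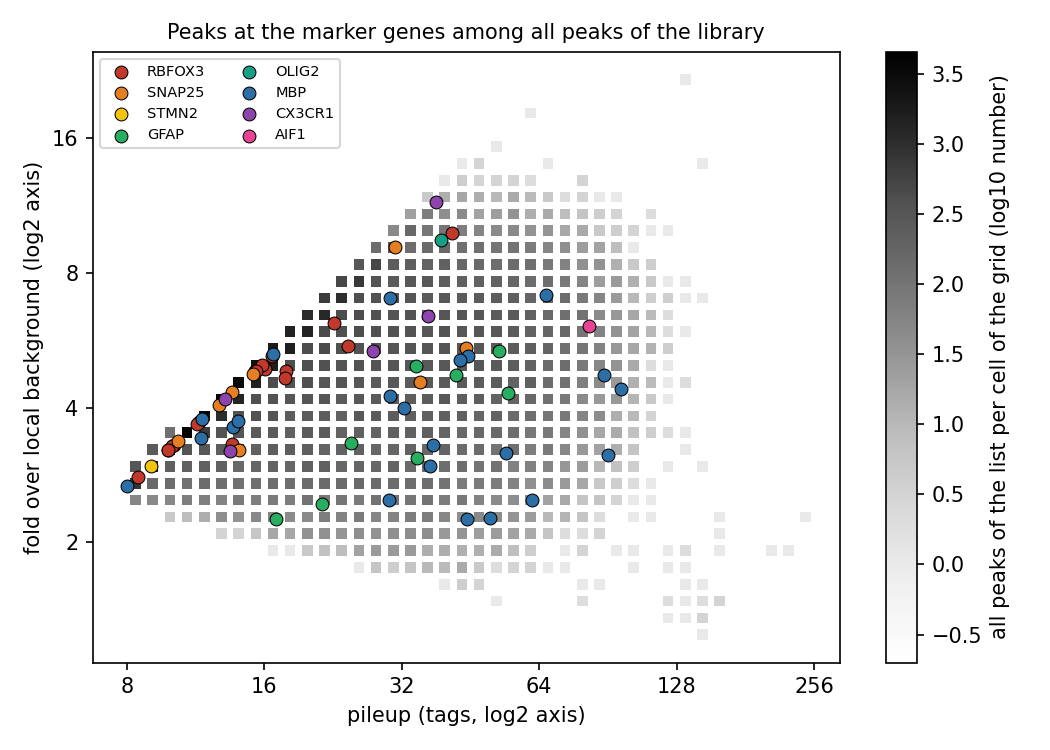
Pileup in tags (x axis) against fold over local background (y axis), both on log2 axes, for all 106415 peaks as a grey grid shaded by number and for the 64 peaks at the marker genes as coloured points. Many RBFOX3 points lie on the upper left edge, where the background is at its lowest value of 2.37 tags, while several MBP points have high pileup and a fold under 3.

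Further markers of the same cell types were counted in the same way, 45 genes with the 9 left out. An end peak was found for 27 of the 45, against 72.8% of protein-coding genes. A peak lay on a start window in 17 of the 33 with a window, against 70.2% of protein-coding genes. Their median highest end peak was 31.0 tags.

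Of 12 neuronal genes 6 had an end peak. The highest was at TUBB3, a neuronal tubulin, with 96.6 tags, and the lowest at GAD1, which makes the transmitter GABA, with 13.9 tags. NEFM, NEFL, GAD2 and DCX had no peak within the gene or 10 kb. Of 10 astrocyte genes 6 had one, from 20.7 tags at S100B to 61.9 tags at GLUL, the glutamine synthetase gene. GJB6 and SOX9 had no peak within 10 kb.

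Of 11 oligodendrocyte lineage genes 6 had an end peak, from 10.35 tags at OLIG1, the neighbour and relative of OLIG2, to 39.6 tags at CNP. All 11 had a peak within 10 kb. Of 12 microglial genes 9 had an end peak, from 10.4 tags at PTPRC, the leukocyte antigen CD45, to 93.6 tags at CD68, a lysosomal protein. TREM2, a microglial receptor, had no peak within 10 kb. On start windows, a peak was found for 6 of the 10 neuronal, 6 of the 7 astrocyte, 3 of the 7 oligodendrocyte lineage and 2 of the 9 microglial genes with a window, against 70.2% of protein-coding genes. For the endothelial genes it was 7 of 7, for the housekeeping genes also 7 of 7, and for the mural cell genes 3 of 6.

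For the labelled cell type, 12 endothelial genes were counted in the same way. All of them had an end peak, from 10.98 tags at ERG to 75.0 tags at EGFL7. This count changed with the filter. It was 9 of 12 where −log10 q reached 5, against 66.7% of protein-coding genes, and 2 of 12 where the fold reached 4, against 56.0%. Under the fold filter the endothelial share was thus below that of all protein-coding genes. The neuronal list had 4 of 12, the astrocyte list 5 of 10, the oligodendrocyte lineage list 1 of 11 and the microglial list 4 of 12. Where −log10 q reached 5, these lists had 5 of 12, 6 of 10, 4 of 11 and 6 of 12, in that order. All 10 housekeeping genes had an end peak as well, from 32.3 tags at HPRT1 to 86.8 at ACTB. It remained for 10 of 10 where −log10 q reached 5 and for 5 of the 10 under the fold filter. Of 8 mural cell genes 4 had an end peak, from 37.6 tags at ACTA2 to 64.3 at TAGLN, and 4 of 8 remained under each filter. KCNJ8 and ABCC9 had no peak within 10 kb. Per 10 kb of gene and flank, the median was 1.29 peaks for the endothelial genes and 1.16 for the housekeeping genes. It was 0.459 for the 9 neuronal and glial markers and 0.663 for all protein-coding genes. For the further lists it was 0.478 (neuron), 0.578 (astrocyte), 0.62 (oligodendrocyte lineage), 0.849 (microglia) and 0.68 (mural cell). The microglial and mural cell medians were thus above that of all protein-coding genes. Neither the identity of the cells nor the presence of other brain cells in the culture was tested by these counts.

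**Figure D4:**
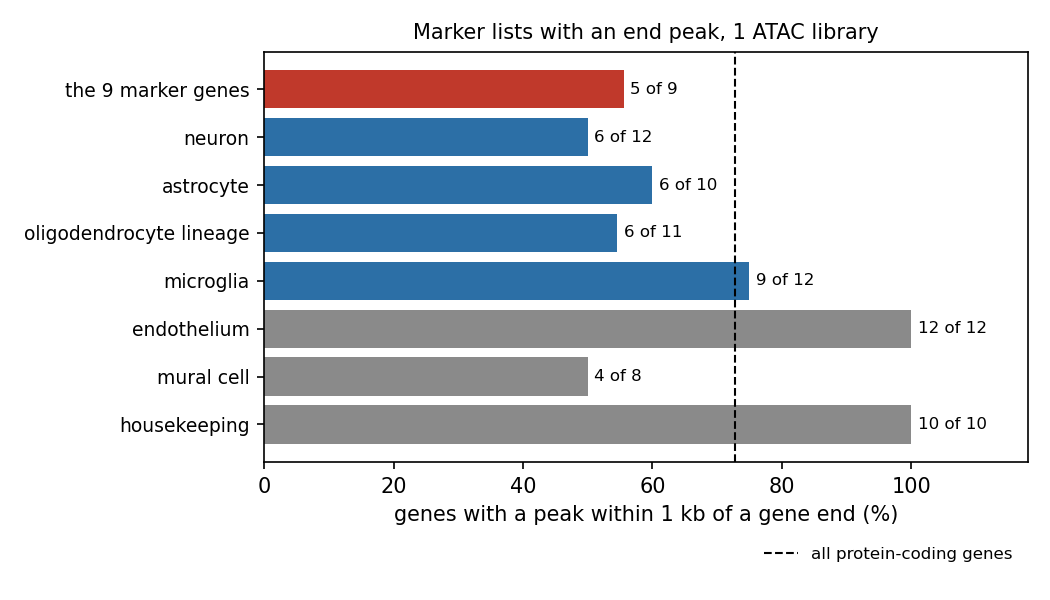
Share of genes with a peak within 1 kb of a gene end (x axis, %) for the 9 marker genes, 4 further lists of brain cell markers and 3 lists for comparison, with the number of genes beside each bar. The dashed line is the 72.8% of all protein-coding genes; the 9 genes (5 of 9) and the neuron, astrocyte, oligodendrocyte lineage and mural cell lists lie below it.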

How the data were processed

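ATAC peaks of 1 hCMEC/D3 library (replicate 2) were analysed. Per the file headers, the authors called broad peaks with MACS 2.2.7.1 without a control, at q of 0.05 (0.1 for broad regions). Tags were shifted by -100 bp and extended to 200 bp in single-end mode, with an effective genome size of 1870000000 bp. That size is the caller's mouse preset and sets the lowest local background at 2.37 tags. Of 31532245 tags 22188172 were kept, 1 per position. The −log10 q-value, −log10 p-value, fold ratio and pileup signal are the authors' deposited values for each peak, with no scaling to depth. They were used only to describe, rank and filter peaks within this list.

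The header names no genome build, and the submitters' processing notes name GRCh38 and mm10. A peak lay on 51.9% of 35116 RefSeq start windows (250 bases before to 50 after a start) of GRCh38.p14, and on 4.61% to 5.99% after offsets of 2 to 50 kb, with the highest share at no offset on each of 23 chromosomes. Gene positions are from that assembly. The gene table gives no strand, so an end is either end of the gene, and "left" and "right" follow the reference. Strand comes from the start windows, which are listed for RBFOX3, AQP4, MBP, CX3CR1 and AIF1.

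A peak was assigned with at least 1 bp of overlap, in the order end (within 1 kb), inside, flank (10 kb). Local background was computed as (pileup + 1) / fold − 1. Genes of similar length are protein-coding genes of 0.5 to 2 times the length. The placement was tested on simulated data. Python 3.11.15 and pandas 2.3.3 were used.

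All peaks of the 9 genes were counted, and the text names the highest, those at gene ends or start windows and single others, rather than each peak as planned. From each other list the genes named are those with the highest and lowest end peak and those without a peak. The genes and lists were chosen with earlier results of these data known. Intervals over genes and tests were not computed, since there was 1 library.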

Additional observations from a re-analysis of the deposited data

How the results depend on the processing

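The number of genes with a peak was 8 of 9 and ran from 6 with no flank to 8 with a flank of 50 kb, within 1.5-fold of the reported count in all 7 alternatives. The flank of 50 kb could not change this count, since the nearest peak to AQP4 was 195 kb away. The 64 peaks became 103 with a flank of 50 kb, 41 where −log10 q reached 5 and 34 where the fold reached 4. The 5 genes with an end peak became 3 with a window of 500 bp (GFAP, MBP and SNAP25), 2 on start windows alone, where 5 genes could be read, and 2 under each of those filters (CX3CR1 and SNAP25 in both). The 27 of 45 further markers became 17 on start windows, where 33 could be read, and 14 at a fold of at least 4. The last compares with 56.0% of protein-coding genes at ends under the same filter. The share of all protein-coding genes was not counted for the flank of 50 kb or the window of 500 bp. Fewer peaks or windows enter each of these settings except the wider flank. Of 26 alternatives 17 stayed within 1.5-fold. Leaving out peaks at other genes and the comparison with genes of similar length were added after the data had been seen. At 22188172 tags and with the caller's settings the lowest pileup called was 8 tags, and weaker accessibility was not called. That limit depends on depth, on the local background and on the genome size given to the caller. Peaks were not called again with a human genome size. No paired analysis was possible because there was 1 ATAC library.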

Other observations

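Over all 35116 start windows, the share with a peak rose with the number of CG pairs in the 250 bases before the start. It was 12.3% for windows with 0 to 4 pairs, 33.4% for 5 to 9, 73.6% for 10 to 19 and 88.2% for 20 or more. Of the 22 windows of the neuronal and glial markers, 13 fell in the first class, compared with 12058 of all 35116. These 22 windows came from 5 of the 9 genes, and 12 of them were at RBFOX3. Of the 13 windows with 0 to 4 pairs, at RBFOX3, AQP4, CX3CR1 and AIF1, none had a peak. Of 2 windows with 5 to 9 pairs, both at RBFOX3, 1 had a peak. Of 6 windows with 10 to 19 pairs, 5 at RBFOX3 and 1 at MBP, 1 had a peak. It was the same RBFOX3 peak, chr17:79658904-79659177, in both classes. The only window with 20 or more was the upstream start of MBP, which had one. Several RBFOX3 windows overlap or lie side by side, so the windows are not independent, and no test was made.

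At RBFOX3, SNAP25, OLIG2 and CX3CR1 the peak of highest fold lay away from any gene end. The same held at MBP (7.14-fold) and STMN2 (2.97-fold). At OLIG2 and STMN2 it was the only peak. Those of higher fold were chr17:79161265-79161649 in RBFOX3 (9.82-fold), chr20:10250770-10251260 in SNAP25 (9.12-fold), chr21:33036381-33036801 beside OLIG2 (9.46-fold) and chr3:39260932-39261454 beside CX3CR1 (11.5-fold). Each stood at or above the 98.3 percentile of fold in the list while its pileup, 31.0 to 41.3 tags, was between the 68.3 and 80.8 percentiles. They were singled out after their values were seen, and how often other genes hold such a peak was not counted.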
